A study of Mus musculus with 10 samples.

Results

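The 34 genes described here are transcription factors, growth factor receptors and surface proteins of the blood lineage, and TET2 occupancy at them was read from ChIP-seq peak lists of mouse embryonic stem (ES) cells. The genes were chosen by name, as blood regulators in a lineage where loss of TET2 matters, and their peaks were not part of the rule. All 34 were found among 21887 protein-coding genes of the GRCm38.p6 annotation, the assembly that mm10 represents. A peak was counted at a gene if it overlapped the gene span, or if it lay within 50 kb of the span and no other protein-coding gene was nearer.

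Each of 4 groups had 2 libraries with a peak list. Wild-type cells (Tet2fl/fl, with no epitope tag) and Tet2 knockout cells (Tet2-/-) were precipitated with a rabbit polyclonal antibody raised to the TET2 N-terminus. FLAG-TET2 cells (Tet2fl/fl, with a 2xFL tag on TET2 at its own locus) and their untagged Tet2fl/fl parental cells were precipitated with anti-FLAG M2 affinity gel, called the FLAG resin here. Culture medium held serum, LIF, a GSK-3 inhibitor and a MEK inhibitor for all groups, and disuccinimidyl glutarate plus formaldehyde served as crosslinkers. Wild-type and FLAG-TET2 lists are called target lists, because the cells carry the epitope. Knockout and parental lists are called control lists, because the cells lack it. The labels do not say whether replicates were separate cultures or how many clones each line represents, so the spread between replicates may be technical. An input and an IgG library were not analysed here. Peaks measure occupancy and not expression, so the identity of the cells was not checked from them, and the depth of sequencing is not known for any list.

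TET2 is a dioxygenase that oxidises methylated cytosine, a step on the way to its removal from promoters and enhancers. In the blood lineage it is known for restraining stem cell self-renewal, and in humans TET2 is often mutated in clonal haematopoiesis and myeloid leukaemia. ES cells express TET2 but do not express most of the blood programme, which is switched on only once mesoderm has formed.

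Peaks were found at 31 of the 34 blood genes (91.2%) in at least 1 list, against 78.5% of all protein-coding genes. Lyl1, Gata1 and Csf1r, which encode a basic helix-loop-helix factor, the leading erythroid GATA factor and the receptor for macrophage colony-stimulating factor, had no peak in any of the 8 lists. At the blood genes there were 77 and 31 peaks in wild-type replicates 1 and 2, against 13 and 35 in knockout replicates 1 and 2. There were 108 and 40 peaks in the FLAG-TET2 replicates, against 43 and 9 in the parental ones. Knockout replicate 2 exceeded wild-type replicate 2, and parental replicate 1 exceeded FLAG-TET2 replicate 2, so the groups overlapped with both reagents.

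The geometric mean was 56.7 peaks in the target lists and 20.5 in the control lists, a log2 difference of 1.47 (2.77-fold). The log2 peak numbers spread within groups with a pooled SD of 1.17 (2 libraries in each of 4 groups). With the TET2 antibody the ratio of wild type to knockout was 2.29 at the blood genes and 5.24 over the whole lists. With the FLAG resin the ratio of FLAG-TET2 to parental was 3.34 at the blood genes and 2.20 over the whole lists. The blood genes therefore had a smaller ratio than the lists as a whole with the antibody and a larger one with the resin. Neither difference was tested, since the genes were chosen with earlier results of these data known.

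The list lengths differed several-fold, and this moved with the peak numbers. Wild-type replicates had 38536 and 18820 listed peaks, against 2259 and 11696 in knockout cells. FLAG-TET2 replicates had 63578 and 28245, against 36518 and 10122 in parental cells. Replicate 1 had the longer list in every group but the knockout. As a share of its list, the peaks at the blood genes made up 0.200% and 0.165% in wild-type cells, against 0.575% and 0.299% in knockout cells. The shares were 0.170% and 0.142% in FLAG-TET2 cells, against 0.118% and 0.0889% in parental cells. Both knockout shares were above every other share, and both FLAG-TET2 shares were above both parental shares.

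**Figure D1:**
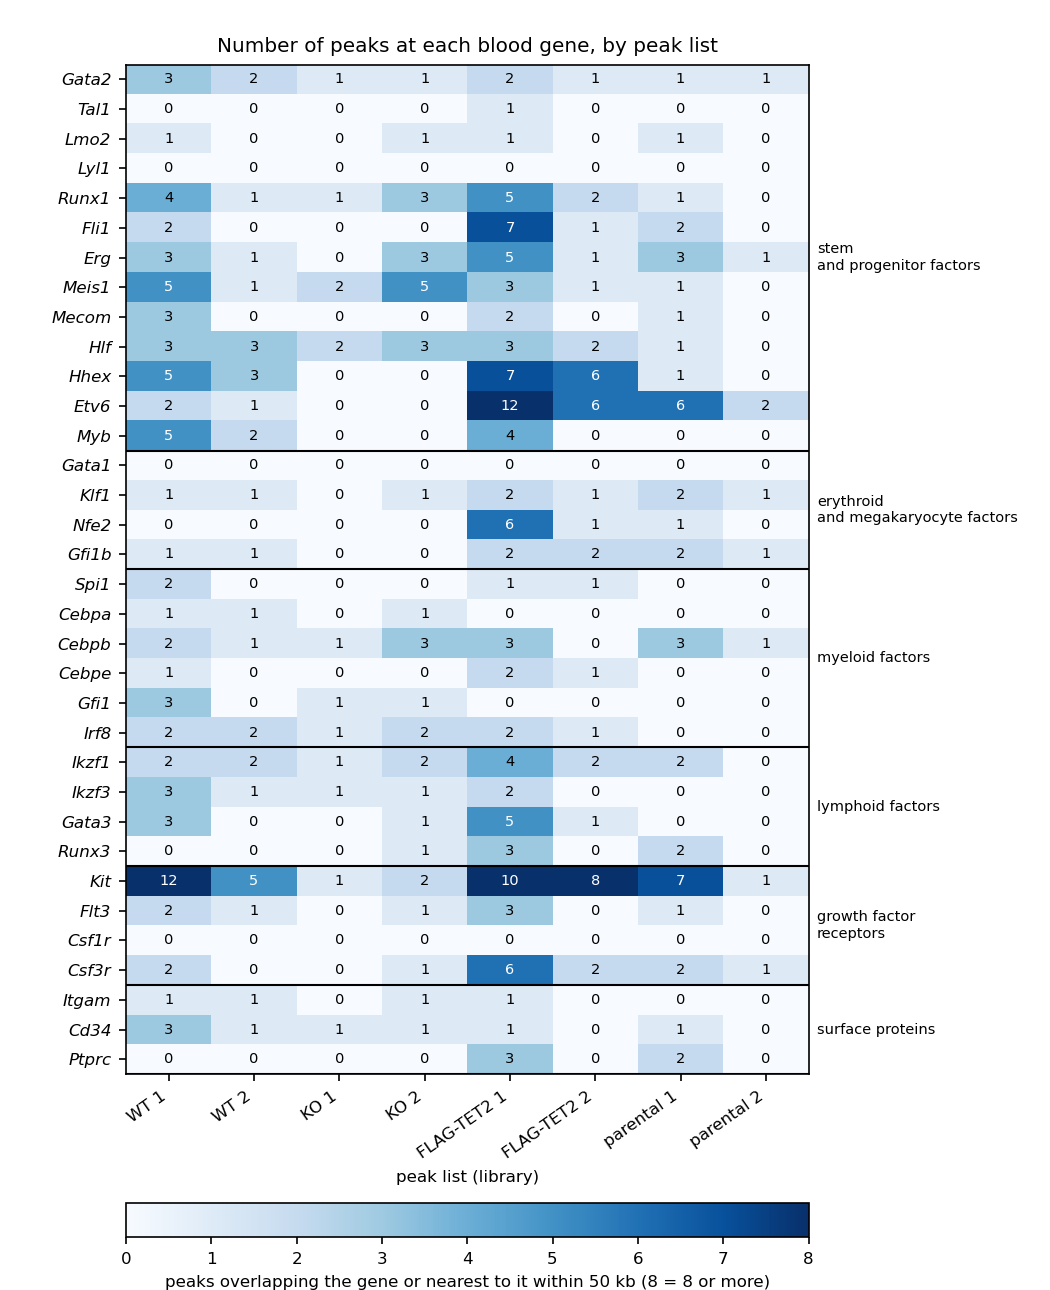
Number of peaks at each of the 34 blood genes (rows, grouped by role) in each of the 8 peak lists (columns). Numbers are peaks that overlap the gene or lie within 50 kb and nearest to it, and darker blue stands for more peaks. Kit reaches 12 peaks in wild-type replicate 1 and Etv6 reaches 12 in FLAG-TET2 replicate 1, while Lyl1, Gata1 and Csf1r are at 0 throughout.

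In the wild-type lists 27 and 19 of the 34 genes had a peak (79.4% and 55.9%), against 66.0% and 47.5% of all protein-coding genes. In the knockout lists 11 and 20 had one (32.4% and 58.8%), against 8.85% and 34.1%. The knockout share of replicate 2 was above the wild-type share of replicate 2. In the FLAG-TET2 lists 29 and 18 had one (85.3% and 52.9%), against 73.1% and 53.8%. In the parental lists 21 and 8 had one (61.8% and 23.5%), against 62.9% and 29.9%. The blood genes stood furthest from the share of all genes in the 2 knockout lists. Territories around the blood genes were wide, with a median of 86.9 kb against 45.8 kb for all genes. Per megabase of territory the blood genes held 34.9 merged regions, against 40.7 for all genes.

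To ask which of these peaks were tied to the epitope, peaks of the 8 lists that shared at least 1 bp were merged into regions. The blood genes held 143 such regions, with a median width of 226 bp. Of these, 15 overlapped an annotated promoter window, 74 lay elsewhere in a gene span and 54 lay in the flanks. A region that both wild-type lists and no knockout list held is called anti-TET2 specific. A region that both FLAG-TET2 lists and no parental list held is called anti-FLAG specific, and a region in all 4 target lists and in no control list is called common. The series text defines TET2 sites in the same spirit, by enrichment over what knockout or parental cells give.

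Common regions were found at 3 of the 34 genes (8.82%), against 13.6% of all protein-coding genes. These were Hhex with 2 regions, Gfi1b with 1 and Kit with 1. Anti-TET2 specific regions were found at 7 genes (20.6%), against 32.0% of all genes, namely Hlf, Hhex, Etv6, Myb, Gfi1b, Kit and Flt3. Anti-FLAG specific regions were found at 12 genes (35.3%), against 24.1% of all genes, namely Runx1, Fli1, Hlf, Hhex, Etv6, Gfi1b, Spi1, Cebpe, Irf8, Gata3, Kit and Csf3r. Either kind was found at 14 genes (41.2%), against 38.8%. With control lists ignored, a region in all 4 target lists was found at 9 genes (26.5%), against 37.0%. A region in at least 2 control lists was found at 17 genes (50.0%), against 41.7%. These counts depended on single lists. Without wild-type replicate 2, common regions were at 8 of the 34 genes, against 19.9% of all genes, and anti-TET2 specific ones at 19, against 53.6%, so that neither count was below the share of all genes any longer. Without FLAG-TET2 replicate 2, anti-FLAG specific regions were at 24 of the 34 genes, against 52.8%. Without knockout replicate 2, anti-TET2 specific regions were at 12 genes, against 42.8%. Without parental replicate 1, common regions were at 5 genes, against 20.3%, and anti-FLAG specific ones at 14, against 39.0%. Per megabase of territory, which was wider at the blood genes, anti-FLAG specific regions numbered 4.64, against 5.21 for all genes. Regions in at least 2 control lists numbered 5.86, against 7.32, so neither kind was above all genes on this scale. Common ones numbered 0.977, against 2.39, and anti-TET2 specific ones 2.93, against 6.30.

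By region, 4 of the 143 (2.80%) were common, against 5.91% of the 66430 regions near any gene. The anti-TET2 specific ones numbered 12 (8.39%, against 15.2%) and the anti-FLAG specific ones 19 (13.3%, against 12.8%). Regions seen in 1 list alone numbered 67 (46.9%, against 38.3%). Of the 67, 37 came from FLAG-TET2 replicate 1, the longest list, against 14248 of 25470 near any gene. Of the 12 anti-TET2 specific regions, 4 were at promoters, 3 in gene spans and 5 in flanks. Of the 19 anti-FLAG specific regions, 1 was at a promoter, 8 were in gene spans and 10 in flanks. None of the 4 common regions was at a promoter. The places of these classes were not compared with those over all genes.

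Lists of other genes set the scale for these counts. Among 20 pluripotency factors, which are active in ES cells, 14 had a common region (70.0%), 18 an anti-TET2 specific one and 18 an anti-FLAG specific one. Among 40 other blood genes 10 had a common region (25.0%), 19 an anti-TET2 specific one (47.5%) and 15 an anti-FLAG specific one (37.5%). Among 24 early germ layer factors the counts were 3 (12.5%), 10 (41.7%) and 6 (25.0%). These lists were drawn up with results known, and the shares are descriptions.

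Single genes were tested across all 17182 protein-coding genes with a peak in any list. A two-sided exact permutation test of the mean peak number, with labels permuted within each reagent over 36 arrangements, cannot give a p below 0.0556. Hhex and Kit reached that smallest p with target lists higher (2 genes, 5.88%), against 9.44% of all genes, and their adjusted p was 0.462 with Benjamini-Hochberg adjustment. No gene had an exact p under 0.05, adjusted or not. A limma fit on log2(peaks + 1) with the reagent as a term called 1 of the 31 blood genes with a peak, Hhex, against 4.20% of the genes tested. By arm, 6 genes (17.6%) had more peaks in both wild-type lists than in either knockout list, against 28.8% of all genes, and 8 (23.5%) had more in both FLAG-TET2 lists than in either parental list, against 14.8%. The fitted log2 difference at Hhex was 2.35, with an adjusted p of 0.012 in limma. The fit had no term for list length, and all 721 genes that it called were higher in the target lists. The part of list length in these calls was not tested. Below an unadjusted p of 0.05, limma had 8 of the 31 blood genes tested and 4967 of all 17182 genes tested.

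**Figure D2:**
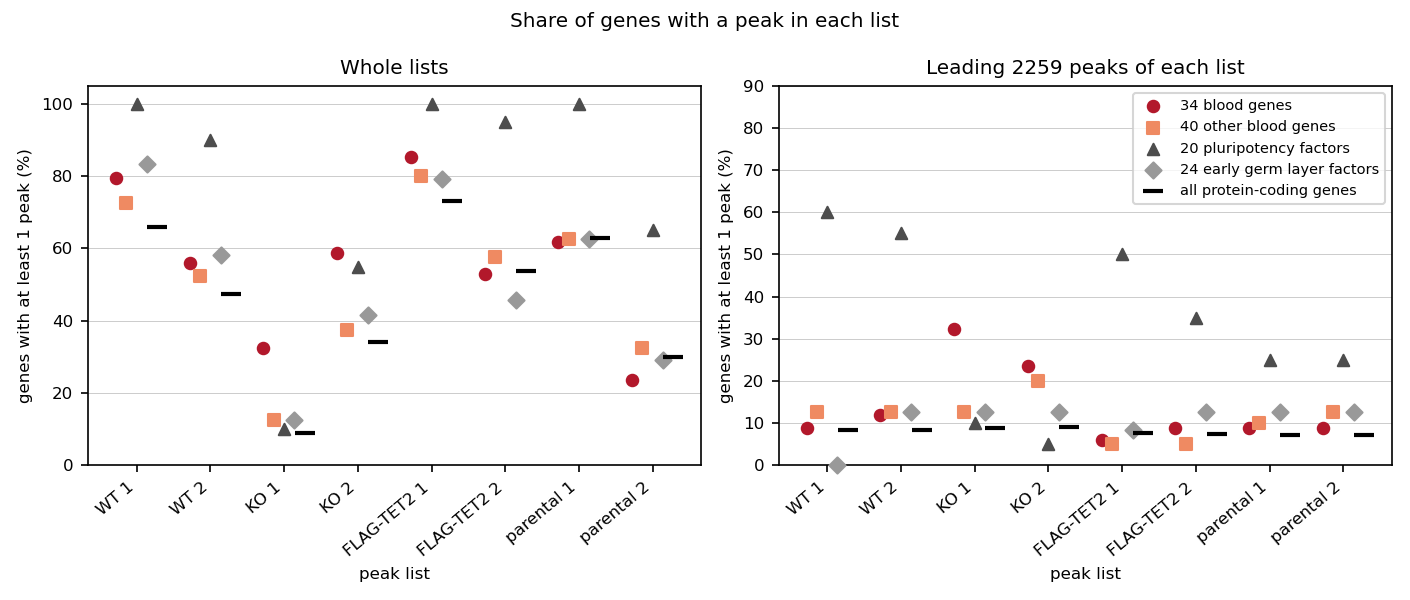
Share of genes (vertical axis, %) with at least 1 peak in each of the 8 lists (horizontal axis), over whole lists in the left panel and over the 2259 leading peaks of each list in the right panel. Symbols are the 34 blood genes, 3 comparison lists and all protein-coding genes. In the right panel the blood genes are at 32.4% and 23.5% in the knockout lists and between 5.88% and 11.8% in the other 6 lists.

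The promoter windows that the following results turn on are shown here so that their base composition can be compared. Each is the 250 bases before an annotated start in RefSeq on GRCm38.p6, written 5′ to 3′ on the strand of the gene, with each CG dinucleotide, the substrate context of TET enzymes, in capitals. Hhex had a peak over its window in all 4 target lists and Myb in 3, with none in a control list. Kit had one in all 4 target lists, and also in knockout replicate 2 and parental replicate 1. Flt3 had one in the wild-type lists alone, Gfi1b had one with the FLAG resin in tagged and untagged cells alike, and Ptprc had none.
Hhex, chr19:37434591-37434840, plus strand: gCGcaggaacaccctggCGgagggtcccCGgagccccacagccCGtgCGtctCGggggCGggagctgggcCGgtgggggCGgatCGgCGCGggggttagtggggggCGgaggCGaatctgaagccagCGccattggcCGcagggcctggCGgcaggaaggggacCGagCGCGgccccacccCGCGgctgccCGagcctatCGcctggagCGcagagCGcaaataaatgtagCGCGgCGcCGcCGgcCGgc
Myb, chr10:21160985-21161234, minus strand: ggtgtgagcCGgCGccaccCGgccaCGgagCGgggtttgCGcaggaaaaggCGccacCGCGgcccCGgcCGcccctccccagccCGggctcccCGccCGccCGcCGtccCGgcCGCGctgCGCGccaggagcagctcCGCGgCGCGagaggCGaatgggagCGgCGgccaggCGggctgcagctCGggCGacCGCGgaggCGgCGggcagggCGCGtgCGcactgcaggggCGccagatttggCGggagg
Kit, chr5:75574737-75574986, plus strand: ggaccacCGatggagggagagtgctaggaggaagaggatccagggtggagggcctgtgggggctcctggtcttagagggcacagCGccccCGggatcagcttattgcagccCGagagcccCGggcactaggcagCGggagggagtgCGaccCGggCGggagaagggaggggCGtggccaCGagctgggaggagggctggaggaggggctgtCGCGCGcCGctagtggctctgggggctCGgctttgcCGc
Flt3, chr5:147400490-147400739, minus strand: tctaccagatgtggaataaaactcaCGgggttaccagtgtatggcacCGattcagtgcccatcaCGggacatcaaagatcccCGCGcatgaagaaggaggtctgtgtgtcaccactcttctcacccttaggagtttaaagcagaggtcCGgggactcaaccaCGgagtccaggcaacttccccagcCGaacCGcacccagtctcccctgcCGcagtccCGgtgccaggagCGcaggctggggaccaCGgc
Gfi1b, chr2:28621983-28622232, minus strand: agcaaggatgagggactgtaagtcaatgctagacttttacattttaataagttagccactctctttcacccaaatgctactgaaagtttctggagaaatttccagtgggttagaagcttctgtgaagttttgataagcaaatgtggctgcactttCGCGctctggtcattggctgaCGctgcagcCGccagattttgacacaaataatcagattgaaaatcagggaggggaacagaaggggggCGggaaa
Ptprc, chr1:138175127-138175376, minus strand: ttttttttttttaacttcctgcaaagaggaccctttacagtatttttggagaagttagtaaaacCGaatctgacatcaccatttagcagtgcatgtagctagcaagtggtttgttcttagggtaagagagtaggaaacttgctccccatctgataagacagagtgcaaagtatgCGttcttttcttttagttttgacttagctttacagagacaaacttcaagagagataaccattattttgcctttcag
These windows held 32 (Hhex), 40 (Myb), 17 (Kit), 13 (Flt3), 5 (Gfi1b) and 2 (Ptprc) CG dinucleotides. The window of Flt3, which encodes the receptor of FLT3 ligand on early progenitors, also held the letters GGAAGT and CACGTG once each. That of Gfi1b held GATAAG once. The Ptprc window, which had no peak over it, held GATAAG once too. It also held the letters GGAAGT and CAGCTG once each. These letters were counted on both strands over the full 300 bases, with 50 bases past the start.

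Among stem and progenitor factors, 13 genes in all, 6 had an anti-TET2 or anti-FLAG specific region, against 38.8% of all genes. Of the same 13, 1 had a common region, against 13.6% of all genes. The role groups are small, and no share by role was tested. Hhex, a homeobox factor needed for blood and endothelial progenitors and also used in endoderm, was the only blood gene with more peaks in every target list than in any control list (1 of 34, 2.94%, against 4.86% of all genes). It had 5 and 3 peaks in wild-type cells, against 0 and 0 in knockout cells. It had 7 and 6 peaks in FLAG-TET2 cells, against 1 and 0 in parental cells. The groups did not overlap with either reagent. Without wild-type replicate 2, FLAG-TET2 replicate 2 or parental replicate 1 there were 4, 3 and 2 such genes among the 34, against 10.5%, 7.47% and 16.5% of all genes, with Hhex among them each time. Hhex lost the pattern within 10 kb, in the gene span alone and with equal lists, where 4.42%, 3.31% and 0.777% of all genes had it. Its FLAG-TET2 replicate 2 peaks included summits at −0.32, −0.03, 0.34 and 0.79 kb from the gene start. Those lay in 1 promoter region, which parental replicate 1 also held.

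The 2 common regions of Hhex lay in the flank beyond its 3′ end. The region at chr19:37469175-37469538, 28.4 kb outside the gene, had an authors' fold enrichment of 6.41 and 3.69 in wild-type cells, and 13.7 and 7.21 in FLAG-TET2 cells. The region at chr19:37488164-37488485, 47.4 kb outside it, had 9.98 and 8.65 in wild-type cells, and 12.9 and 5.21 in FLAG-TET2 cells. No control list held a peak at either. The fold enrichment is the authors' own value for each peak, and describes peaks within a list. Both regions ranked in the lower part of the common regions, with a mean within-list percentile of −log10 q of 58.3 and 64.0 against a median of 70.7 over all common regions, and with a threshold on −log10 q of at least 5 neither was kept as common.

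The Hhex promoter region at chr19:37434394-37435713 had folds of 8.32 and 4.61 in wild-type cells, with none in knockout. It had 7.87 and 5.71 in FLAG-TET2 cells, against 6.50 and none in parental cells. The parental peak lay outside the 300-base window, so the window itself was covered in all 4 target lists and in no control list. No other blood gene of the 27 with an annotated window had this pattern (3.70%, against 2.56% of all genes), and Hhex no longer had it when peaks within 1 kb of the window were counted.

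Myb, a factor that definitive blood stem and progenitor cells depend on, had 5 and 2 peaks in wild-type cells and 0 and 0 in knockout cells. It had 4 and 0 peaks in FLAG-TET2 cells, against 0 and 0 in parental cells. Every control list was thus at 0, and the only target list without a peak was FLAG-TET2 replicate 2. At its promoter, chr10:21160917-21161270, the folds were 9.49 and 6.38 in wild-type cells, and 6.56 and none in FLAG-TET2 cells. A region inside the gene, chr10:21130929-21131197, had 8.70 and 6.95 in wild-type cells, and 9.88 and none in FLAG-TET2 cells. Both were anti-TET2 specific.

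Hlf, a PAR-type leucine zipper factor that marks long-term blood stem cells, had 3 and 3 peaks in wild-type cells and 2 and 3 in knockout, and 3 and 2 in FLAG-TET2 cells, against 1 and 0 in parental cells. Wild type and knockout overlapped, and FLAG-TET2 and parental did not. Its strongest region, chr11:90417918-90418401, lay 27.0 kb upstream of the gene. There the folds were 30.8 and 18.9 in wild-type cells, against 21.6 and 28.5 in knockout cells, so the antibody gave peaks there in cells without TET2. With the resin the same region had 6.47 and 3.81 in FLAG-TET2 cells and no peak in parental cells, which made it anti-FLAG specific.

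The Hlf promoter, chr11:90390570-90391116, also had peaks in knockout cells, with folds of 10.3 and 9.38 in wild-type cells, against 6.93 and 12.9 in knockout cells. It had 7.23 and none in FLAG-TET2 cells, against none in parental cells. A region just upstream, chr11:90391470-90391907, had 6.84 and 7.68 in wild-type cells, against none in knockout cells, and 7.23 and 7.75 in FLAG-TET2 cells, against 5.42 and none in parental cells. Parental replicate 1 alone kept it from being common.

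Etv6, an ETS repressor needed for stem cells in adult bone marrow, had 2 and 1 peaks in wild-type cells and 0 and 0 in knockout, and 12 and 6 in FLAG-TET2 cells, against 6 and 2 in parental cells. The antibody groups did not overlap, and FLAG-TET2 replicate 2 tied with parental replicate 1. The promoter region, chr6:134034858-134036259, had folds of 9.70 and 7.67 in wild-type cells, against none in knockout cells, and 5.85 and 3.82 in FLAG-TET2 cells, against 4.61 and none in parental cells. It also covers the promoter of Gm46977, so the peak cannot be assigned to one gene of the pair. Inside the Etv6 span lay 3 anti-FLAG specific regions. One of them, chr6:134046161-134046513, had folds of 12.2 and 5.77 in FLAG-TET2 cells and 7.83 and none in wild-type cells.

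Runx1, the factor that starts definitive haematopoiesis, had 4 and 1 peaks in wild-type cells and 1 and 3 in knockout, and 5 and 2 in FLAG-TET2 cells, against 1 and 0 in parental cells. The antibody groups overlapped and the resin groups did not. The promoter region over its downstream start, chr16:92697187-92697536, had folds of 8.14 and none in wild-type cells, against none and 5.15 in knockout cells, and 6.41 and 4.62 in FLAG-TET2 cells, against none in parental cells. A region 11.5 kb further into the gene, chr16:92685630-92686099, had the same pattern, with 8.57 and none in wild-type cells, none and 5.92 in knockout, and 9.75 and 6.13 in FLAG-TET2 cells. At chr16:92605635-92606162, near the 3′ end, peaks were present with and without the epitope. The folds were 9.95 and 3.06 in wild-type cells, against 5.65 and 8.07 in knockout cells. With the resin they were 4.72 and none in FLAG-TET2 cells, against 4.33 and none in parental cells.

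Fli1, an ETS factor of blood and endothelium, had 2 and 0 peaks in wild-type cells and 0 and 0 in knockout, and 7 and 1 in FLAG-TET2 cells, against 2 and 0 in parental cells. In both comparisons the second replicate was close to the controls, and FLAG-TET2 overlapped parental. The anti-FLAG specific region at chr9:32415007-32415311, 6.89 kb outside the gene, had folds of 13.3 and 6.34 in FLAG-TET2 cells, and 11.9 in wild-type replicate 1.

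Of the 143 regions at the blood genes, 1 was present in all 8 lists, against 251 of the 66430 near any gene. Gata2, a GATA factor that maintains blood stem cells, carried it. This region, chr6:88189559-88190830, 3.06 kb outside the gene span, had folds of 22.8 and 11.6 in wild-type cells, against 16.0 and 27.3 in knockout cells, and 14.4 and 7.92 in FLAG-TET2 cells, against 7.17 and 3.95 in parental cells. It was thus listed with and without the epitope for both reagents. Gata2 had 3 and 2 peaks in wild-type cells, against 1 and 1 in knockout cells, and 2 and 1 in FLAG-TET2 cells, against 1 and 1 in parental cells. The antibody groups did not overlap, and the resin groups did.

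Meis1, a homeobox cofactor of blood stem cells, had 5 and 1 peaks in wild-type cells and 2 and 5 in knockout, and 3 and 1 in FLAG-TET2 cells, against 1 and 0 in parental cells. The groups overlapped with both reagents. At chr11:19020388-19021462, 0.74 kb outside the gene, the folds were 5.82 and 5.31 in wild-type cells, against 7.20 and 14.2 in knockout cells, with 5.33 and none in FLAG-TET2 cells, against none in parental cells. Of the other stem and progenitor factors, Tal1, Lmo2, Mecom and Erg had no specific region, and between 0 and 5 peaks in any list.

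Of the 4 erythroid and megakaryocyte factors, Gfi1b alone had a specific region of either kind, where 38.8% of all genes had one. Gfi1b, a repressor needed for red cell and platelet formation, had 1 and 1 peaks in wild-type cells and 0 and 0 in knockout, and 2 and 2 in FLAG-TET2 cells, against 2 and 1 in parental cells. The antibody groups did not overlap, and the resin groups did. The common region at chr2:28607359-28607723, 1.73 kb beyond the 3′ end, had folds of 18.3 and 13.8 in wild-type cells, and 15.2 and 9.81 in FLAG-TET2 cells, with no peak in any control list. Its mean within-list percentile was 91.4, above 90.8% of all common regions.

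At the Gfi1b promoter, chr2:28621710-28622232, the TET2 antibody gave no peak in either genotype. The resin gave folds of 22.0 and 15.6 in FLAG-TET2 cells, against 26.8 and 15.6 in parental cells, so this peak was present without the tag. Klf1, an activator of globin genes, had 1 and 1 peaks in wild-type cells and 0 and 1 in knockout, and 2 and 1 in FLAG-TET2 cells, against 2 and 1 in parental cells. The groups overlapped with both reagents. Its main region, chr8:84902647-84903535, had folds of 5.48 and 4.59 in wild-type cells, against none and 6.35 in knockout cells, and 9.12 and 3.30 in FLAG-TET2 cells, against 10.2 and 4.58 in parental cells. Nfe2, a leucine zipper factor of megakaryocytes, had no peak in a TET2 antibody list, and 6 and 1 in FLAG-TET2 cells, against 1 and 0 in parental cells.

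**Figure D3:**
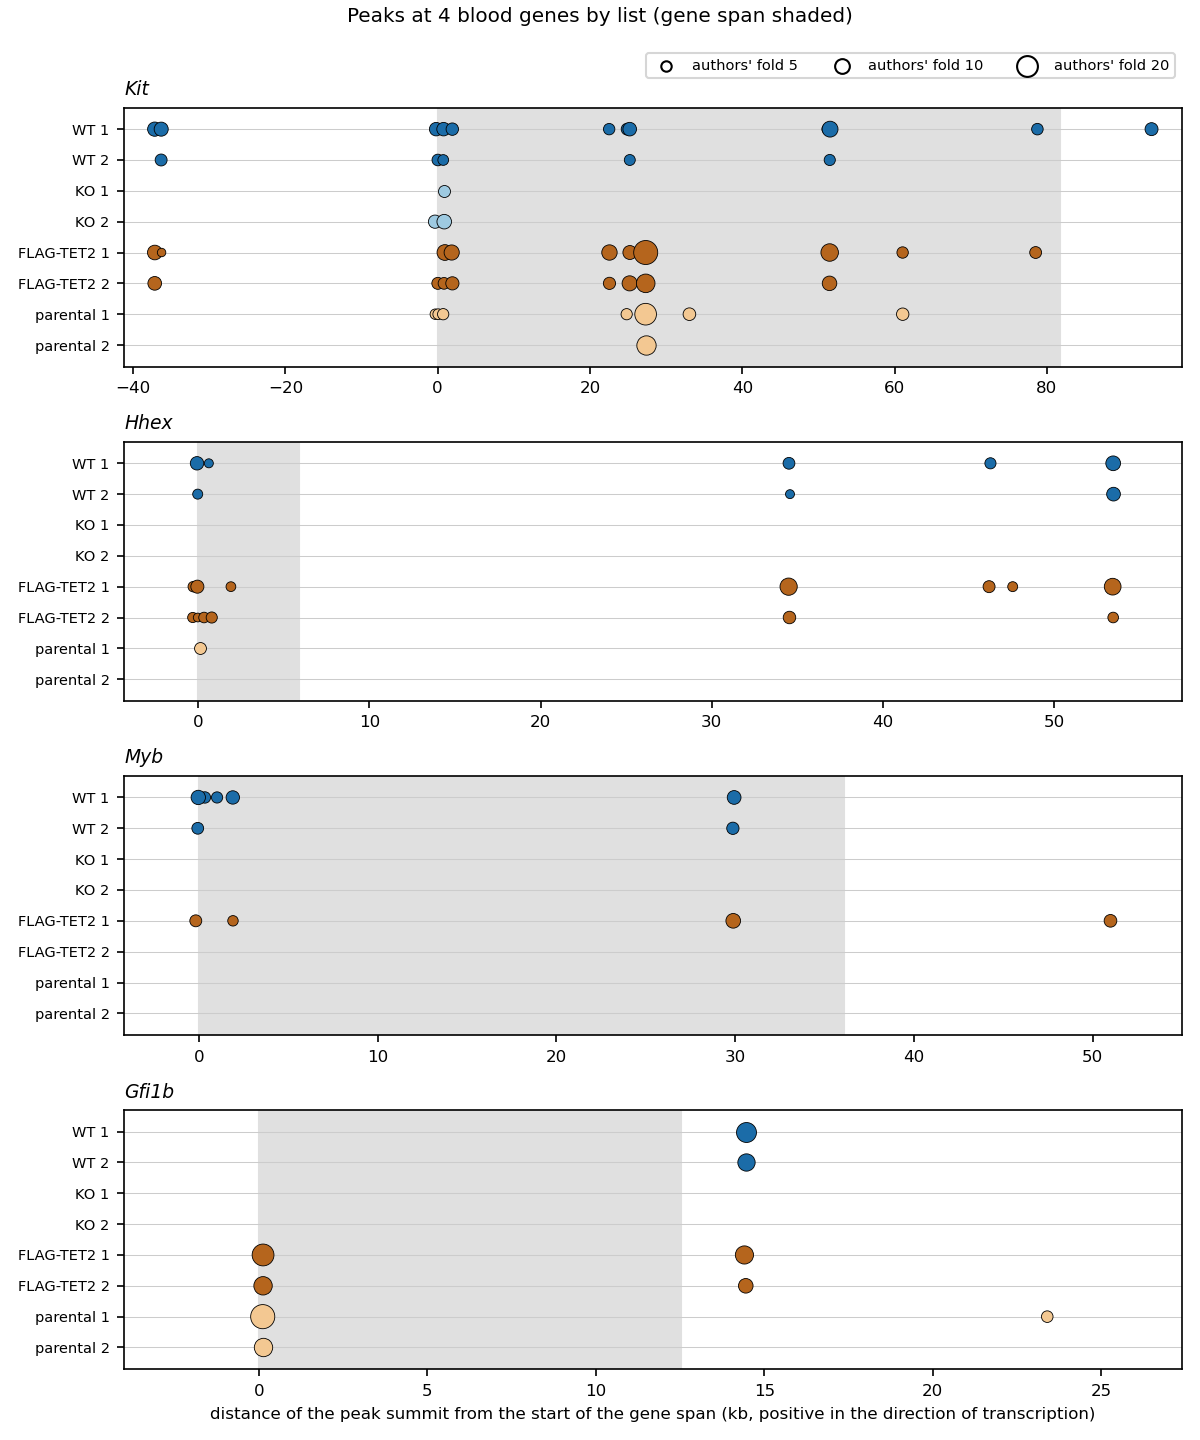
Peak summits at Kit, Hhex, Myb and Gfi1b, by distance from the start of the gene span (horizontal axis, kb, in the direction of transcription; span shaded), with 1 row for each list and circle area in proportion to the authors' fold. Rows run from wild type and knockout to FLAG-TET2 and parental. At Hhex and Myb the knockout rows are empty, and at Gfi1b the promoter circles are in the FLAG-TET2 and parental rows. The circles just past the 3′ end of Gfi1b are in the wild-type and FLAG-TET2 rows, and 1 circle further out, at 23.4 kb, is in the row of parental replicate 1.

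Myeloid factors, 6 genes in all, had no common or anti-TET2 specific region, where 13.6% and 32.0% of all genes had one. Anti-FLAG specific regions were at 3 of the 6, against 24.1% of all genes. Spi1, which encodes PU.1, had 2 and 0 peaks in wild-type cells and 0 and 0 in knockout, and 1 and 1 in FLAG-TET2 cells, against 0 and 0 in parental cells. No control list held a peak. The region inside its span, chr2:91112603-91113058, had folds of 7.75 and 4.81 in FLAG-TET2 cells and 7.25 and none in wild-type cells. Cebpe, a factor of granule formation, had 1 and 0 peaks in wild-type cells, 2 and 1 in FLAG-TET2 cells, and none in any control list. Its region at chr14:54714369-54714546, 2.19 kb outside the gene, had folds of 4.51 and 4.42 in FLAG-TET2 cells.

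Irf8, a factor of monocytes and dendritic cells, had 2 and 2 peaks in wild-type cells and 1 and 2 in knockout, and 2 and 1 in FLAG-TET2 cells, against 0 and 0 in parental cells. The antibody groups overlapped, and the resin groups did not. The region at chr8:120803559-120804283, 46.9 kb outside the gene, had folds of 5.76 and 5.66 in wild-type cells, against none and 10.3 in knockout cells, and 11.5 and 5.99 in FLAG-TET2 cells, against none in parental cells. All 4 target lists held it, and so did 1 knockout list. At the Irf8 promoter, chr8:120735668-120736483, folds were 10.2 and 7.84 in wild-type cells, against 5.21 and 10.9 in knockout cells, and the resin gave no peak in FLAG-TET2 or parental cells.

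Cebpb, a leucine zipper factor of stress granulopoiesis and macrophages, had 2 and 1 peaks in wild-type cells and 1 and 3 in knockout, and 3 and 0 in FLAG-TET2 cells, against 3 and 1 in parental cells. Neither reagent separated the groups. Inside the gene, at chr2:167689657-167690266, folds were 5.40 and 4.31 in wild-type cells, against 4.01 and 6.07 in knockout cells, and 4.17 and none in FLAG-TET2 cells, against 3.34 and none in parental cells. Cebpa, which granulocyte commitment depends on, and Gfi1, a repressor of granulocytes and stem cells, had no specific region. Of the genes and regions named here by their values alone, chosen after these were seen, Gfi1 had a region at chr5:107721081-107721664 with folds of 6.46 and none in wild-type cells, against 7.21 and 11.6 in knockout cells.

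Lymphoid factors, 4 genes in all, had 1 gene with an anti-FLAG specific region, where 24.1% of all genes had one. Gata3, the GATA factor of T cells, had 3 and 0 peaks in wild-type cells and 0 and 1 in knockout, and 5 and 1 in FLAG-TET2 cells, against 0 and 0 in parental cells. The resin groups did not overlap. Its region at chr2:9855859-9856259, 0.82 kb outside the gene, had 8.74 and 5.67 in FLAG-TET2 cells and 8.06 and none in wild-type cells. Ikzf1, which encodes Ikaros, had 2 and 2 peaks in wild-type cells and 1 and 2 in knockout, and 4 and 2 in FLAG-TET2 cells, against 2 and 0 in parental cells. Its groups shared values with both reagents.

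The Ikzf1 promoter region, chr11:11684609-11686491, had peaks in 7 of the 8 lists. Its folds were 8.70 and 5.70 in wild-type cells, against 8.09 and 11.4 in knockout cells, and 6.09 and 6.34 in FLAG-TET2 cells, against 3.71 and none in parental cells. Ikzf3, which encodes Aiolos, and Runx3, a factor of cytotoxic T cells, had no specific region, with between 0 and 3 peaks in any list. Ikzf3 had a region at chr11:98545684-98546015 with 8.44 and 5.28 in wild-type cells, 6.42 and 10.4 in knockout cells and no peak with the resin, again chosen after its values were seen.

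Receptors held the gene with the most peaks. Kit, the receptor for stem cell factor, which germ cells and melanocytes also use, had 12 and 5 peaks in wild-type cells and 1 and 2 in knockout, and 10 and 8 in FLAG-TET2 cells, against 7 and 1 in parental cells. The groups did not overlap with either reagent, although parental replicate 1 exceeded wild-type replicate 2. The common region at chr5:75626353-75626962, 51.7 kb into the gene, had folds of 11.6 and 5.74 in wild-type cells, and 14.1 and 9.73 in FLAG-TET2 cells. No control list held it, and its mean within-list percentile was 69.1.

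Other Kit regions were held by some of the target lists. The region at chr5:75599750-75600356, 25.1 kb into the gene, had 8.52 and 5.54 in wild-type cells, against none in knockout cells, and 8.96 and 10.5 in FLAG-TET2 cells, against 5.81 and none in parental cells. Upstream, at chr5:75537746-75538049, 36.9 kb outside the gene, folds were 9.88 and 8.60 in FLAG-TET2 cells and 9.34 and none in wild-type cells, with none in any control list. The neighbouring region at chr5:75538509-75538817 was anti-TET2 specific, with 9.10 and 6.56 in wild-type cells, and 3.31 and none in FLAG-TET2 cells. Kit regions beyond the 3 with the highest mean percentile were chosen after their values were seen.

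The Kit promoter region, chr5:75574511-75576059, was in 7 lists, with 8.38 and 6.22 in wild-type cells, against 6.64 and 9.76 in knockout cells, and 11.4 and 6.62 in FLAG-TET2 cells, against 5.87 and none in parental cells. The highest Kit folds with the resin were at chr5:75602150-75602438, at 26.6 and 15.9 in FLAG-TET2 cells, against 21.6 and 17.2 in parental cells, with no peak in the TET2 antibody lists. Some Kit peaks of the resin were thus held by FLAG-TET2 lists alone and others by parental lists as well.

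Flt3 had 2 and 1 peaks in wild-type cells and 0 and 1 in knockout, and 3 and 0 in FLAG-TET2 cells, against 1 and 0 in parental cells. Its groups overlapped. The anti-TET2 specific region was its promoter, chr5:147400268-147400576, with folds of 6.65 and 4.52 in wild-type cells and no peak in the other 6 lists. Csf3r, the receptor for granulocyte colony-stimulating factor, had 2 and 0 peaks in wild-type cells and 0 and 1 in knockout, and 6 and 2 in FLAG-TET2 cells, against 2 and 1 in parental cells. No group stood clear of its control.

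Csf3r held an anti-FLAG specific region at chr4:125992232-125992739, 30.7 kb outside the gene, with 12.9 and 6.90 in FLAG-TET2 cells and 13.5 and none in wild-type cells. Nearby, at chr4:125996485-125996986, stood the highest fold of any region at a blood gene in each of the 4 resin lists, 39.9 and 26.5 in FLAG-TET2 cells, against 57.7 and 28.5 in parental cells. No TET2 antibody list had a peak there.

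Surface proteins, 3 genes in all, had no specific region, where 38.8% of all genes had one of either kind. Cd34, a sialomucin of progenitors and endothelium, had 3 and 1 peaks in wild-type cells and 1 and 1 in knockout, and 1 and 0 in FLAG-TET2 cells, against 1 and 0 in parental cells. Both pairs of groups overlapped. Its region at chr1:194976102-194976973, 14.8 kb outside the gene, had folds of 7.37 and 7.87 in wild-type cells, against 5.76 and 6.47 in knockout cells, and 7.25 and none in FLAG-TET2 cells, against 4.02 and none in parental cells. Itgam, which encodes the integrin chain CD11b, had 1 peak in each of the wild-type lists, in knockout replicate 2 and in FLAG-TET2 replicate 1. Ptprc, which encodes CD45 of all nucleated blood cells, had 3 and 0 peaks in FLAG-TET2 cells, against 2 and 0 in parental cells, and none with the antibody.

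**Figure D4:**
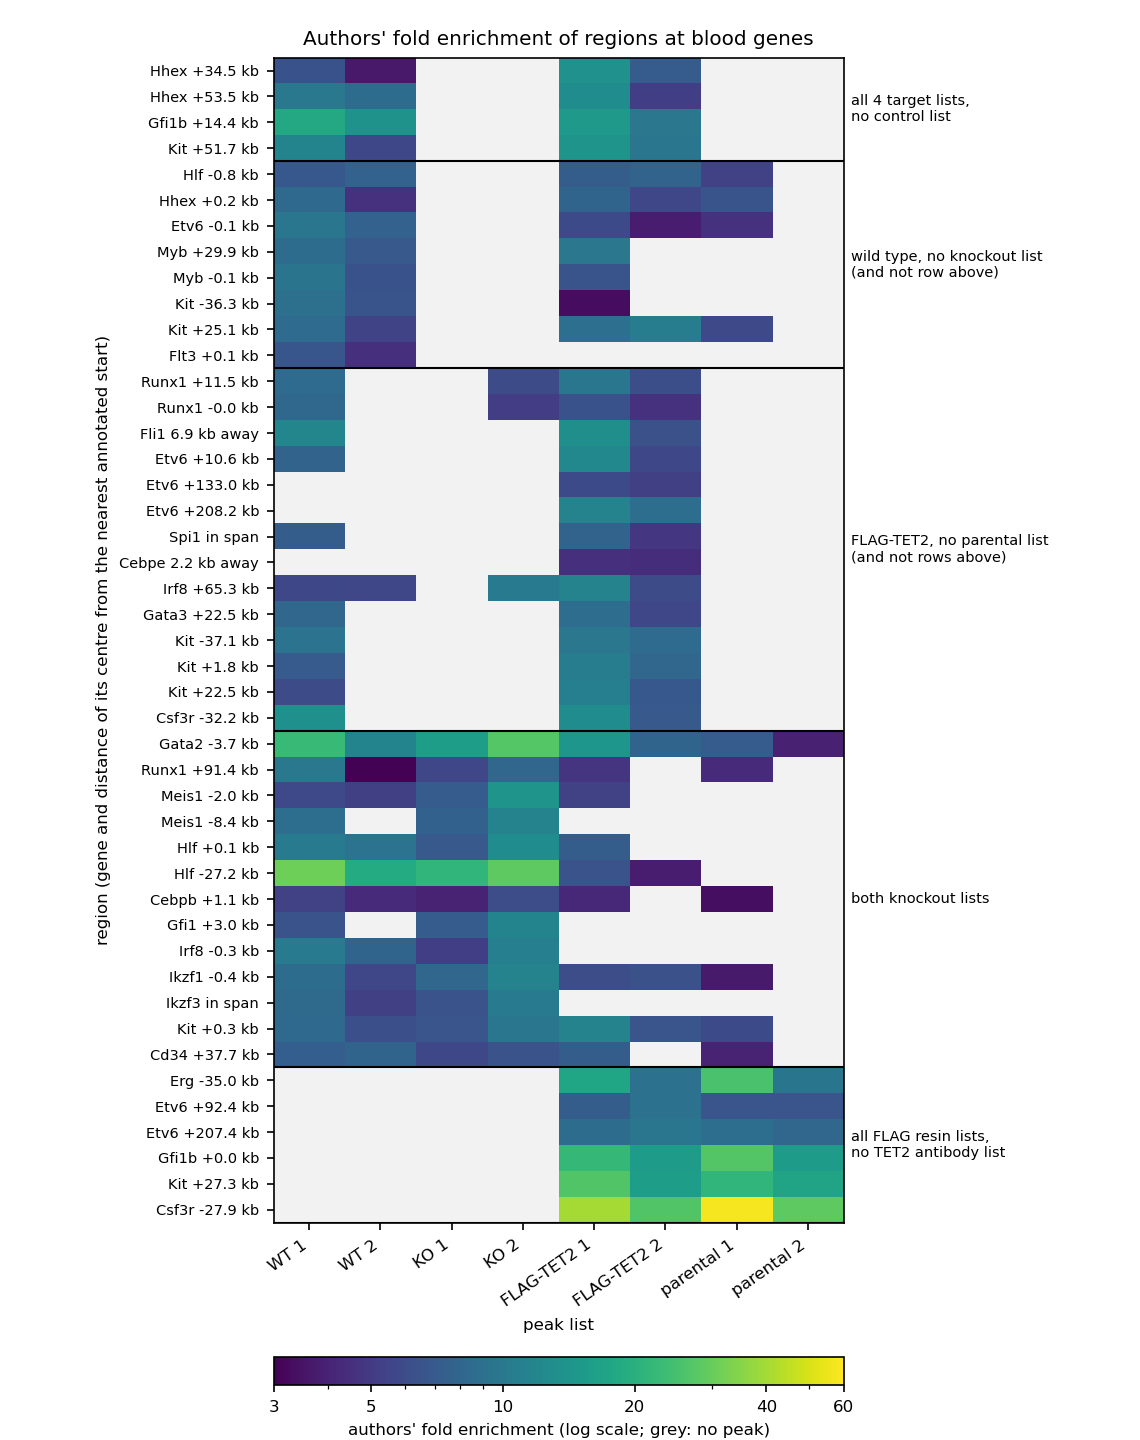
Authors' fold enrichment (colour, log scale, grey where a list holds no peak) of regions at blood genes (rows) in the 8 lists (columns). Rows are the common, anti-TET2 specific and anti-FLAG specific regions, those of both knockout lists, and those of all FLAG resin lists alone. Labels give the distance of the region's centre from the nearest annotated start in kb. For genes without an annotated window, they give the distance from the gene span or say that the region is in it. Rows are grouped by the lists that hold the region. The 13 regions of both knockout lists all have a value in the column of wild-type replicate 1, and the 6 regions at the foot have values in all FLAG-TET2 and parental columns and none in the antibody columns.

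Peaks were also found in cells without the epitope, and they are listed here by reagent. Both knockout lists held a peak at 11 of the blood genes (32.4%), against 8.85% of all genes, namely Gata2, Runx1, Meis1, Hlf, Cebpb, Gfi1, Irf8, Ikzf1, Ikzf3, Kit and Cd34. Knockout replicate 1, the shorter list, by itself held a peak at the same 11 blood genes and at 8.85% of all genes. The knockout lists shared 13 regions at these genes. Of the 13, 11 were also in both wild-type lists (84.6%, against 82.6% of the regions of both knockout lists near any gene). In a FLAG-TET2 list were 9 of the 13, against 1255 of the 1989 such regions near any gene. In no FLAG resin list were 4 of the 13, against 699 of the 1989.

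Both parental lists held a peak at 8 blood genes (23.5%), against 29.7% of all genes, namely Gata2, Erg, Etv6, Klf1, Gfi1b, Cebpb, Kit and Csf3r. Parental replicate 2, the shorter list, had a peak at no other blood gene. Both FLAG-TET2 and both parental lists shared 8 of the 143 regions (5.59%), against 10.7% of the regions near any gene. Of these 8, 6 had no peak in any TET2 antibody list, against 3167 of the 7110 such regions near any gene. The 6 regions lay at Erg, Etv6 (2 regions), Gfi1b, Kit and Csf3r. At Erg, an ETS factor of blood stem cells, the region chr16:95494175-95494416 had folds of 17.6 and 9.15 in FLAG-TET2 cells, against 25.5 and 9.61 in parental cells, and was chosen after its values were seen. The overlap of the 2 reagents in cells without their epitope was not tested.

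When each list was shortened to its 2259 leading peaks by −log10 q, the length of the shortest list, the order of the groups turned round with the antibody. Wild-type lists then held 3 and 4 peaks at the blood genes, and knockout lists 13 and 11. FLAG-TET2 lists held 2 and 3, and parental lists 3 and 3. By gene, 3 and 4 of the 34 (8.82% and 11.8%) had a leading peak in wild-type cells, where 8.26% and 8.43% of all genes did. In knockout cells 11 and 8 (32.4% and 23.5%) had one, where 8.85% and 8.96% of all genes did. In FLAG-TET2 cells 2 and 3 (5.88% and 8.82%) had one, where 7.54% and 7.42% of all genes did, and in parental cells 3 and 3 (8.82% each), where 7.26% and 7.22% did. Both knockout lists had a leading peak at 8 blood genes, Gata2, Runx1, Meis1, Hlf, Gfi1, Irf8, Ikzf1 and Ikzf3, and at 6.71% of all genes. The log2 difference of target over control lists was −1.04 on this scale. The lowest −log10 q among the leading peaks was 2.07 in knockout replicate 1, whose list was kept whole, and between 16.6 and 73.8 in the other lists. The knockout groups did not overlap with wild type, and the FLAG-TET2 and parental groups overlapped.

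The same shortening moved other gene lists differently. Of the 20 pluripotency factors 12 and 11 had a leading peak in wild-type cells, and 2 and 1 in knockout cells. Of the 40 other blood genes 5 and 5 had one in wild-type cells, and 5 and 8 in knockout cells. Of the 24 early germ layer factors 0 and 3 had one in wild-type cells, and 3 and 3 in knockout cells. Depth and precipitation efficiency are not known for any list, and their part in these counts was not tested.

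Promoter windows of 300 bases, with 250 before and 50 past an annotated start, were available in RefSeq for 27 of the 34 genes, as 39 windows. In wild-type lists 13 and 9 of the 27 genes had a peak over a window, against 46.9% and 29.2% of 17492 genes. In knockout lists 2 and 6 did, against 3.60% and 16.7%. Both arms had more such genes in replicate 1 of the cells with the epitope than in any other list of the arm. In FLAG-TET2 lists 9 and 5 did, against 48.8% and 29.9%, and in parental lists 6 and 1 did, against 32.8% and 9.28%. A peak over a promoter window was found in some list at 15 of the 27 genes (55.6%), and at 55.6% of all genes. A promoter peak that both wild-type lists and no knockout list held was found at Hhex, Etv6, Myb and Flt3 (14.8%, against 16.3%). One that both FLAG-TET2 lists and no parental list held was found at Runx1 and Hhex (7.41%, against 5.83%).

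Windows with target peaks held more CG than those without, among the blood genes and among all genes. Windows of blood genes with a peak in at least 3 target lists numbered 8 and had a median of 32.5 CG dinucleotides, with a range of 17 to 52. Those with a peak in 1 or 2 target lists numbered 7 and had a median of 18, and the 24 with none had a median of 8.5. The same medians over all genes were 25.0, 19 and 4.0. Gata2 and Runx3 had windows of 32 and 45 CG with no target peak over them. Runx3 had a peak in parental replicate 1 there. Of the 8 windows with at least 3 target lists, those of Etv6, Hlf, Ikzf1, Kit and Runx1 also had a peak in a control list. Those of Hhex and Myb had none, and Kit was counted with both of its windows, which overlap. Windows with a control peak held from 7 CG (Gfi1b) to 52 (Ikzf1), and target and control peaks were not compared for CG.

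**Figure D5:**
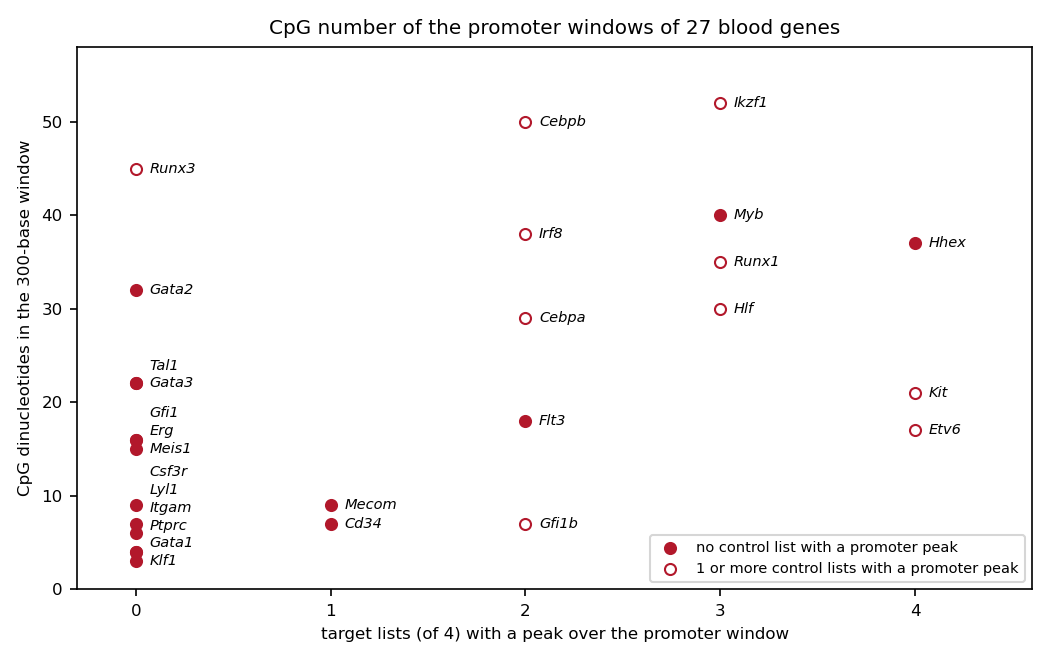
CG dinucleotides in the 300-base promoter window (vertical axis) of each of 27 blood genes, by the number of the 4 target lists with a peak over it (horizontal axis). Each point is the window of the gene with the most lists, or with the most CG where windows tied, and open points have a control list with a promoter peak. Ikzf1, at 52 CG and 3 target lists, is highest, and Gfi1b, at 7 CG and 2 target lists, is a low point with control peaks.

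Short motifs of blood factors were looked for in the same windows on both strands, as letters alone. GATAAG, the core of GATA sites, was in 5 of the 39 windows (12.8%), against 6.92% of 21263 windows of all genes. TGTGGT, a RUNX core, was in 4 (10.3%), against 15.0%, and GGAAGT, an ETS core, was in 4 (10.3%), against 24.8%. CAGCTG, an E-box, was in 3 (7.69%), against 15.6%, and CACGTG, an E-box bound by MYC among others, was in 2 (5.13%), against 7.84%. TTGCGCAA, a C/EBP site, was in none of the 39, against 0.221%. The windows of Kit overlap, as do those of Ptprc, the counts are small, and no difference was tested. None of these runs of letters contains another. No sequence of the distal regions was used here.

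The limit of 50 kb left some regions just inside and some just outside. Just inside were regions of Hhex at 40.2, 41.6 and 47.4 kb, of Gata3 at 44.2 kb and of Irf8 at 46.9 kb. Just outside were regions of Kit at 52.2 and 56.3 kb, of Runx3 at 53.7 kb, of Meis1 at 54.5 kb and of Etv6 at 59.5 kb, none of them in more than 2 target lists.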

How the data were processed

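Binding was measured by ChIP-seq in 8 libraries of mouse ES cells. Each deposited list holds the peaks of 1 library. The submitters' processing notes name MACS2, Bowtie2, Trimmomatic, DESeq2 and DiffBind as tools and mm10 as the build, without saying what each did. The words IgG, rmDUP, rmChrM and q10 stand in the deposited peak names. The authors' deposited values per peak are a score, a fold enrichment, the −log10 of p and of q, and a summit offset, which served to describe and order peaks of the same list. Read counts were not given in the sources used here, so depth and the precision it gives are unknown, and no interval was computed.

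Peaks on 21 chromosomes were assigned to the nearest protein-coding span of GRCm38.p6 within 50 kb, and merged into 79350 regions. Assignment, merging and tests were checked on simulated data (Python 3.11.15, R 4.3.3, limma 3.58.1). For the tests, the simulated lists had the same expected length, apart from planted changes, and Poisson noise alone. That check therefore does not cover the differences in list length or the replicate spread of these data. Peak numbers were tested with an exact permutation test, and with limma as an alternative, adjusted by Benjamini-Hochberg over 17182 genes. The members and gene lists, region classes and tests were chosen with earlier results of these data known. Named genes were those with a common, anti-TET2 specific or anti-FLAG specific region, or with a region in at least 3 target and 2 control lists, with up to 3 regions each. Others are said to be chosen by their values. The promoter, motif and leading-peak descriptions of single lists took shape after the data were seen. A promoter table from RefSeq covered 27 of the 34 genes. Alternatives covered the threshold, overlap, distance, list length, replicate block and each left-out replicate.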

Additional observations from a re-analysis of the deposited data

How the results depend on the processing

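The log2 difference in peaks at the 34 genes, 1.47, lay between 1.41 and 1.65 when the threshold, summit window, distance or nearest-gene rule was changed and between 0.90 and 2.03 when a replicate was left out. With lists of equal length it was −1.04. The 3 genes with a common region became 0 with equal lists, 1 in the gene span alone, 10 when any gene within 50 kb counted (1.01%, 8.62% and 29.5% of all genes), and 3 to 8 without a replicate. The 7 with an anti-TET2 specific region became 1, 5, 17 (4.65%, 25.9% and 56.1%), and 7 to 19 under the same changes. The 12 with an anti-FLAG specific region became 0, 4, 18 (1.18%, 15.9% and 47.5%), and 12 to 24. The 1 gene with more peaks in every target list than in any control list became 0 with equal lists, within 10 kb and in the span alone, 5 when any gene within 50 kb counted (0.777%, 4.42%, 3.31% and 6.27% of all genes), and 1 to 4 without a replicate. Without a replicate, the shares of all genes were 13.6% to 20.3% for common regions and 32.0% to 53.6% for anti-TET2 specific ones. They were 24.1% to 52.8% for anti-FLAG specific ones and 4.86% to 16.5% for more peaks in every target list. At −log10 q of at least 5 the common regions were at Hlf, Gfi1b and Kit. The test of peak number called 0 genes in all by exact permutation. Under limma it called 1 of the 34, Hhex, with a pseudocount of 1 or 0.5, with a replicate block, or over genes with at least 8 peaks, the last chosen after seeing the data; over all genes tested it called 721, 567, 789 and 1478 (4.20%, 3.30%, 4.59% and 15.9%).

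Replicate numbers are shared between groups, but nothing ties same-numbered libraries. Their deviations correlated at −0.11 with the antibody and 0.21 with the resin over 17182 genes. With the replicate block, 3 genes (Hhex, Etv6 and Kit) had more peaks in the target list of both pairs with each reagent, against 3716 genes in all (17.0%). The paired exact p cannot fall below 0.125, and limma's adjusted p for Hhex was 0.041. With crossed pairs in the antibody arm, chosen after seeing the data, 3 genes did, against 4509 (20.6%). The promoter pattern of all 4 target and no control list was found at 1 gene over the window and at 0 within 1 kb of it. The causes of these changes were not tested, and depth is unknown.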

Other observations

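Several blood genes had a common region within 50 kb that was nearer to another protein-coding gene, and which the counts for the 34 genes leave out. The strongest lay 22.5 kb from Myb at chr10:21101812-21102478, with folds of 31.4 and 19.1 in wild-type cells, and 31.9 and 18.2 in FLAG-TET2 cells. It was 21.4 kb from Ahi1, the neighbour it was given to. A region 11.1 kb from Lmo2, which bridges GATA and TAL1 factors, lay in 4931422A03Rik at chr2:103992993-103993407, with 17.9 and 10.8 in wild-type cells, and 21.7 and 12.2 in FLAG-TET2 cells. Gata1 had 3 such regions, 1 in Eras and 2 at Glod5, although no peak was nearest to Gata1 itself.

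Further regions of this kind lay near Flt3 in Cdx2, near Hhex in Kif11, near Ikzf3 in Mien1, near Nfe2 in Cbx5 and near Spi1 in Madd. At Cdx2, a trophoblast and gut factor, the folds were 7.25 and 6.32 in wild-type cells, and 14.8 and 6.34 in FLAG-TET2 cells. Peak lists alone do not say which gene a region belongs to.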
